A study of Mus musculus with 12 samples.

Results

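Translation initiation factors were taken as every probe whose annotated symbol starts with Eif and a digit. Eif2ak3, a further eIF2 kinase gene, was left out and not analysed here. The symbols that start with Eif2c, which are old names of Argonaute genes, were also left out. The rule used no measured values and found 94 of the 45281 probes of the array, which belong to 50 of the 19057 annotated genes. Of these, 43 carry the name of a factor itself and are called factors proper. Among them, Eif5a and Eif6 act beside initiation and Eif2s3x-ps1 is a pseudogene. The protein of Eif4e2 binds the cap but not the eIF4G scaffold. The other 7 were set apart: Eif4ebp1, Eif4ebp2, Eif4ebp3 and Eif4enif1, whose proteins bind eIF4E, and the eIF2 kinase genes Eif2ak1, Eif2ak2 and Eif2ak4.

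RNA came from the mouse insulinoma line MIN6, whose cells resemble pancreatic β cells and secrete insulin, and was hybridised to 12 arrays (Illumina MouseWG-6 v2), 2 for each of 6 groups. All cells received lipofectamine. The untransfected control was given doxycycline (1 µg/ml) but no plasmid, and the transfected control held the rtTA and tetO-184 plasmids without the drug. In the induced cells, which held both plasmids, miR-184 was switched on with the same dose of doxycycline over 16, 24, 48 or 72 hr. Transfection was transient, so that an array reports the mean of cells with and without the plasmids, and in such bulk RNA fewer cells of a type and less RNA per cell cannot be told apart. When the controls were harvested is not given in the labels. The arrays lay on 2 slides with 1 array per group on each and the groups in 1 order, and so the group cannot be told apart from the position on a slide. The design text speaks of biological replicates, but no label ties an array to a culture, and p-values measure only the spread between these arrays.

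Initiation brings the ribosome, the messenger RNA and the initiator tRNA together at the start codon. eIF2 carries the initiator tRNA and is recharged with GTP by eIF2B, eIF3 bridges the small ribosomal subunit and the messenger RNA, and the eIF4 factors bind the cap and unwind the leader. Cells slow this step by phosphorylating eIF2, which blocks eIF2B, or by letting 4E-binding proteins seize eIF4E when the kinase mTORC1 is inactive. β cells, which make large amounts of proinsulin, are known for their dependence on the control of eIF2.

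The RNA that the plasmids were made to express is shown first. Its own level was not analysed here, and the induced groups differ from the transfected control in doxycycline as well. The mature sequence of mmu-miR-184-3p was taken from RefSeq (GRCm38.p6, chr9:89802263-89802284, minus strand), and capitals mark its seed, bases 2 to 8.
mmu-miR-184-3p: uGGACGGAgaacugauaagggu

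The windows shown next come from the RefSeq promoters (GRCm38.p6) and are those before the start of tested members that hold the E-box CACGTG, searched because several genes of initiation are known targets of MYC. Capitals mark the E-box, which is its own reverse complement.
Eif4a1 chr11:69672595-69672624, minus strand: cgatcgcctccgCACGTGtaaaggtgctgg
Eif5a chr11:69921443-69921472, minus strand: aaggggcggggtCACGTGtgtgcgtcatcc
Eif5a chr11:69920791-69920820, minus strand: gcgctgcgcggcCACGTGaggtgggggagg
Eif4h chr5:134639488-134639517, minus strand: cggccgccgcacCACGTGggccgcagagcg
Eif4e chr3:138527028-138527057, plus strand: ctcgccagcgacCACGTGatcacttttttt
Eif4e chr3:138527192-138527221, plus strand: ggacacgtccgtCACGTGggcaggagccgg
Eif1b chr9:120492570-120492599, plus strand: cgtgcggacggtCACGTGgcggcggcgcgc
Eif3f chr7:108934335-108934364, plus strand: caagatatgattCACGTGgtataaatttag
Eif3k chr7:28981915-28981944, minus strand: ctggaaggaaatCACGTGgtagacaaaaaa

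Promoters of 38 of the 50 genes were matched by symbol, 32 of them tested genes, and 8 of the 32 (25%) held CACGTG within 250 bases before to 50 bases after a start. The same letters stood in 7.15% of the 32851 promoters of the table and in 8.09% of its 27025 genes. These shares cover genes whether or not they were detected here, and no share over all tested genes was taken. The eighth match, Eif3a, lay after the start. At 72 hr 4 of the 8 genes differed from the transfected control by log2 values above 0 (Eif1b 0.15, Eif3f 0.06, Eif3k 0.19 and Eif4e 0.07) and 4 below 0 (Eif3a −0.26, Eif4a1 −0.33, Eif4h −0.26 and Eif5a −0.49). The letters TGATGNAA, which resemble the amino acid response element bound by ATF4, were searched on both strands and were found in 4.51% of genes and in 1 of the 32 tested members, Eif2s3x. These matches describe the letters in the windows and are not evidence of binding.

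Of the 94 probes, 70 were detected (detection p under 0.01) on 2 arrays or more, and 64 on all 12 arrays. A gene with more than 1 such probe was represented by the brightest on average, which gave 40 testable genes, 35 of them factors proper, among 12001 features. Of the 40 genes, 39 were detected on all 12 arrays, and the exception was Eif3h with 7. The other 10 genes were detected on no array and were not tested: Eif1ax, Eif2ak4, Eif2s3x-ps1, Eif2s3y, Eif3e, Eif3m, Eif4e1b, Eif4ebp3, Eif4g3 and Eif5a2. Their highest deposited signals lay between 67.8 and 98.2. Eif1, Eif2s1, Eif3g and Eif4g1 have no annotated probe in the table used and were not analysed here.

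Between 15243 and 16737 probes were detected on each array. All 8 measured β-cell markers were detected on 12 arrays, whereas the markers of leukocytes (0 of 3) and of endothelium and fibroblasts (0 of 5) were detected on none. Of 5 acinar and duct markers, 4 were detected on no array and Amy2a5 on 2. Of 4 measured markers of the other islet cells, Gcg and Ppy were detected on 12 arrays, and Sst and Hhex on none. Arrays on 1 slide shared part of their deviation from the group means (median correlation 0.434 over 15 pairs of groups). A second fit therefore took the slide as a block, and its adjusted p-values stand beside those of the first and are called blocked.

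The arrays of the 48 hr group differed from each other in the members more than those of any other group. The median SD of the members between the 2 arrays of a group was 0.23 at 48 hr, while it lay between 0.07 and 0.12 in the other groups. Over all features it was 0.19 at 48 hr, close to 0.18 at 72 hr, and between 0.12 and 0.15 in the other groups.

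After 72 hr of doxycycline the factors of initiation did not move as a group. Without the block, Eif4e2 alone among the 35 factors proper and among all 40 genes differed from the transfected control, at a background of 5.48% of all features. With the block, 7 of the 40 genes passed (17.5%) at a background of 19.2%. Eif4e2, Eif2b4, Eif5a, Eif2d and Eif4a1 were lower, and Eif5 and Eif4ebp1 were higher, at backgrounds of 8.76% lower and 10.4% higher. The share of members that passed thus lay below the background without the block and near it with the block. The median log2 difference of the 35 factors was 0.03, beside 0.00 for all features, with 18 above 0 and 17 below. Their median size of difference was 0.26, beside 0.27 for all features, and 24 of the 35 had the same sign on both slides. At an unadjusted p under 0.05, 11 of the 40 genes passed, at a background of 25.6%.

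All groups share 1 estimate of the spread, and the 72 hr comparison was also fitted without the 48 hr arrays. This was chosen after the disagreement of those arrays had been seen. Since it removes much of the measured spread of genes such as Eif4ebp1 and Eif2s2, lower p-values for them were to be expected and are no further support. Eif4ebp1 (adjusted p = 0.0131, blocked 0.000168), Eif4e2 (0.0197, blocked 0.00594), Eif2b4 (0.0307, blocked 0.0116) and Eif2s2 (0.0193, blocked 0.00615) then passed in both fits. Eif4a1 (0.0562, blocked 0.0193), Eif5 (0.0549, blocked 0.0194), Eif5a (0.0800, blocked 0.00985) and Eif2d (0.0881, blocked 0.0367) still passed only with the block. The share of all features that passed without the 48 hr arrays was not taken.

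**Figure D1:**
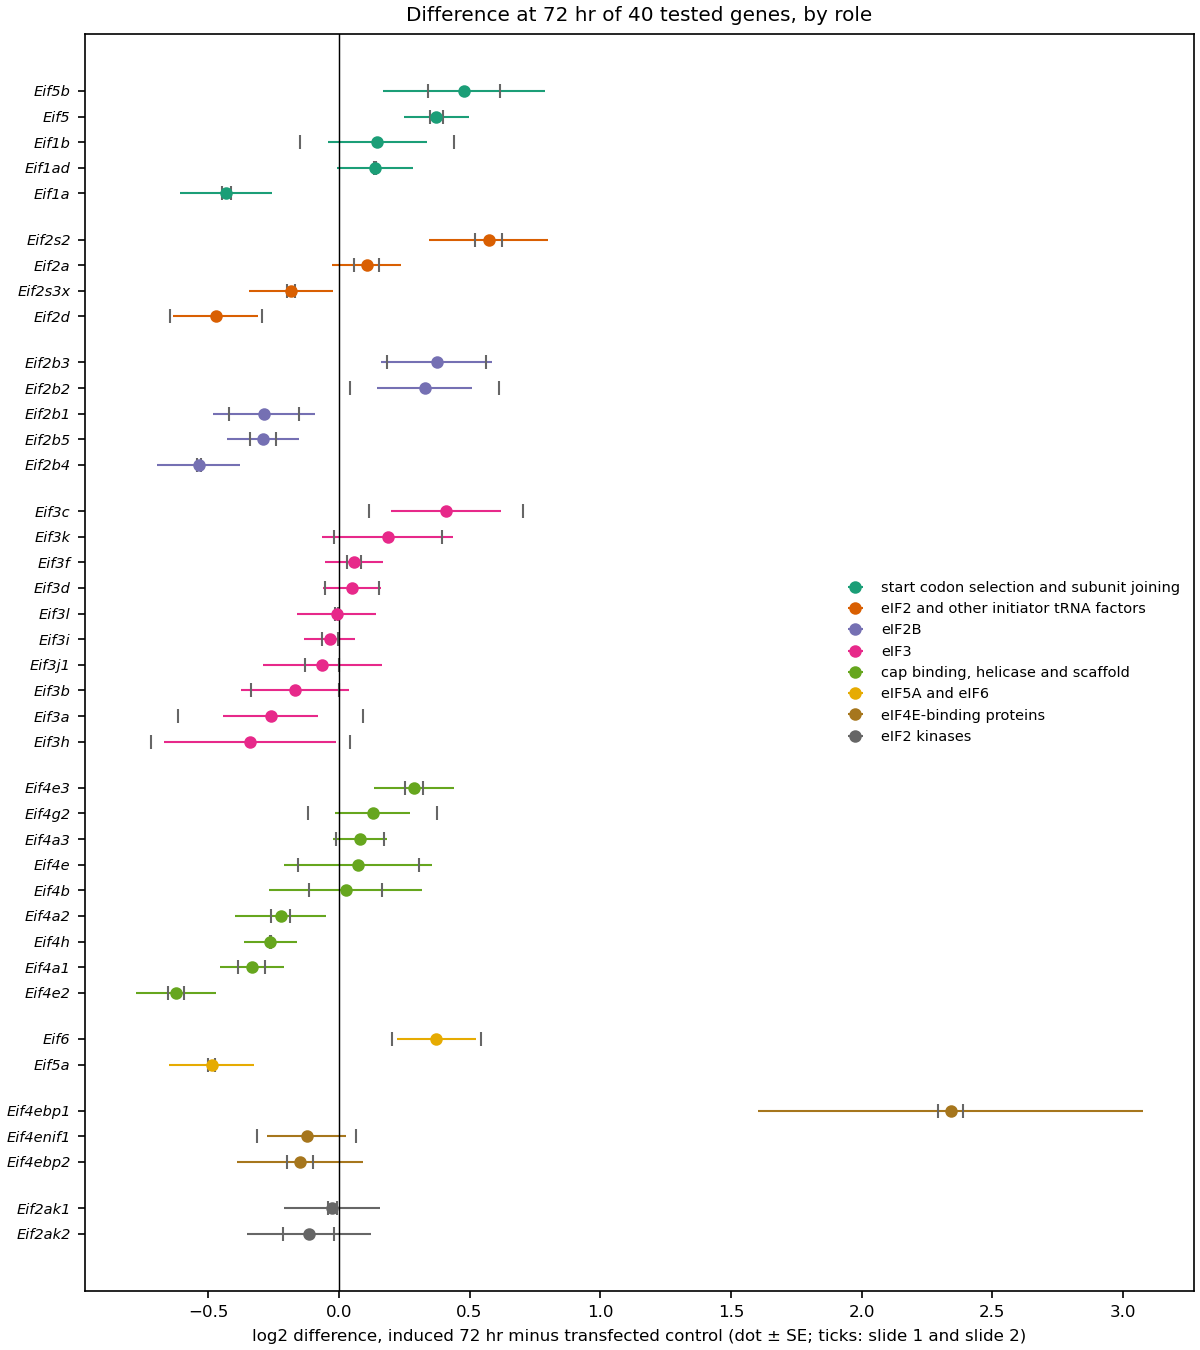
Log2 difference between the induced 72 hr and the transfected control arrays for the 40 tested genes, grouped by role (dots with bars for the SE of the fit without the block, ticks for the difference within slide 1 and slide 2). Eif4ebp1 lies at 2.34, far to the right of the factors proper, which spread on both sides of 0 from −0.62 (Eif4e2) to 0.57 (Eif2s2).

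Eif4ebp1 encodes 4E-BP1, which sequesters eIF4E when it is not phosphorylated, and is known as a target gene of ATF4 in β cells. In this and the following accounts the value of slide 1 stands before that of slide 2, both on the log2 scale of the normalized signal. Each fit without 1 of the arrays compared leaves 1 array in a group. The share of all features that passed in such fits was not taken. Calls lost or gained there may thus not be particular to a gene. Eif4ebp1 measured 9.88 and 11.59 in the untransfected control, 10.44 and 10.82 in the transfected control, 10.30 and 10.60 at 16 hr, 9.99 and 11.03 at 24 hr, 10.49 and 13.27 at 48 hr, and 12.73 and 13.21 at 72 hr. Both 72 hr arrays lay above every array of the controls and of 16 and 24 hr. The 48 hr arrays were split, with that of slide 1 within the range of the controls and that of slide 2 above both 72 hr arrays. At 72 hr the difference was 2.34 ± 0.74 (SE, n = 2 against 2), or 5.06-fold, with 2.29 and 2.39 within the slides. It missed the threshold without the block (adjusted p = 0.0796) and passed it with the block (0.0053). The blocked call was lost without transfected control replicate 2 (1.90, adjusted p = 0.100).

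In the group of cap-binding, helicase and scaffold genes, Eif4e2 encodes 4EHP. This relative of eIF4E binds the cap but not the eIF4G scaffold, and is thus not counted as part of the cap-binding complex. Eif4e2 measured 10.92 and 10.95 in the untransfected control, 10.96 and 10.84 in the transfected control, 10.82 and 10.97 at 16 hr, 10.60 and 10.86 at 24 hr, 10.63 and 10.29 at 48 hr, and 10.31 and 10.25 at 72 hr. The 72 hr arrays did not overlap with the controls or the 16 and 24 hr arrays, and the 48 hr array of slide 2 lay with them. The difference at 72 hr was −0.62 ± 0.15 (SE, adjusted p = 0.0451, blocked 0.014), or 1.54-fold lower. Without the block, the call was lost without induced 72 hr replicate 2 (adjusted p = 0.244), transfected control replicate 1 (0.167) or transfected control replicate 2 (0.167). With the block, it was lost without the same arrays (0.0761, 0.0865 and 0.0968). Against the untransfected control the difference was −0.66 (adjusted p = 0.0354). Without the block, only Eif4e2 and Eif2b4 passed against that control. Among the other genes with a blocked call, the difference from it was smaller for Eif5 (0.25), Eif4a1 (−0.26) and Eif5a (−0.39). It was larger for Eif2d (−0.59). For Eif4ebp1 it was slightly smaller, with a mean of 10.73 in the untransfected and 10.63 in the transfected control.

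Eif4a1 encodes the RNA helicase of the cap-binding complex. Eif4a1 measured 13.97 and 13.93 in the untransfected control, 14.08 and 13.96 in the transfected control, 14.02 and 13.87 at 16 hr, 13.99 and 13.92 at 24 hr, 14.07 and 13.72 at 48 hr, and 13.70 and 13.68 at 72 hr. Both 72 hr arrays lay below the other 10 arrays. The difference was −0.33 ± 0.12 (adjusted p = 0.118, blocked 0.0391). The blocked call was lost without any 1 of the arrays compared: induced 72 hr replicate 1 (0.132) or 2 (0.0757) and transfected control replicate 1 (0.127) or 2 (0.210).

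The other members of this group did not pass in either fit. Eif4h, a cofactor of the helicase, measured 13.70 and 13.79 in the transfected control, as against 13.44 and 13.52 at 72 hr, a difference of −0.26 ± 0.10 (blocked adjusted p = 0.082). Eif4a2, which encodes a close relative of eIF4A1, measured 13.56 and 13.38 in the transfected control, as against 13.37 and 13.12 at 72 hr, a difference of −0.22 ± 0.17. The probe of Eif4e, the cap-binding protein itself, measured 6.58 and 6.73 in the transfected control, as against 6.43 and 7.03 at 72 hr. The groups of Eif4e overlapped, and the difference of 0.07 ± 0.28 had opposite signs on the slides. This probe was dim, with deposited signals from 130 to 234, while an undetected probe of Eif3a reached 118. The differences of Eif4a3, Eif4b, Eif4e3 and Eif4g2 lay between 0.03 and 0.29, and the probe of Eif4b was also dim (155 to 294).

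**Figure D2:**
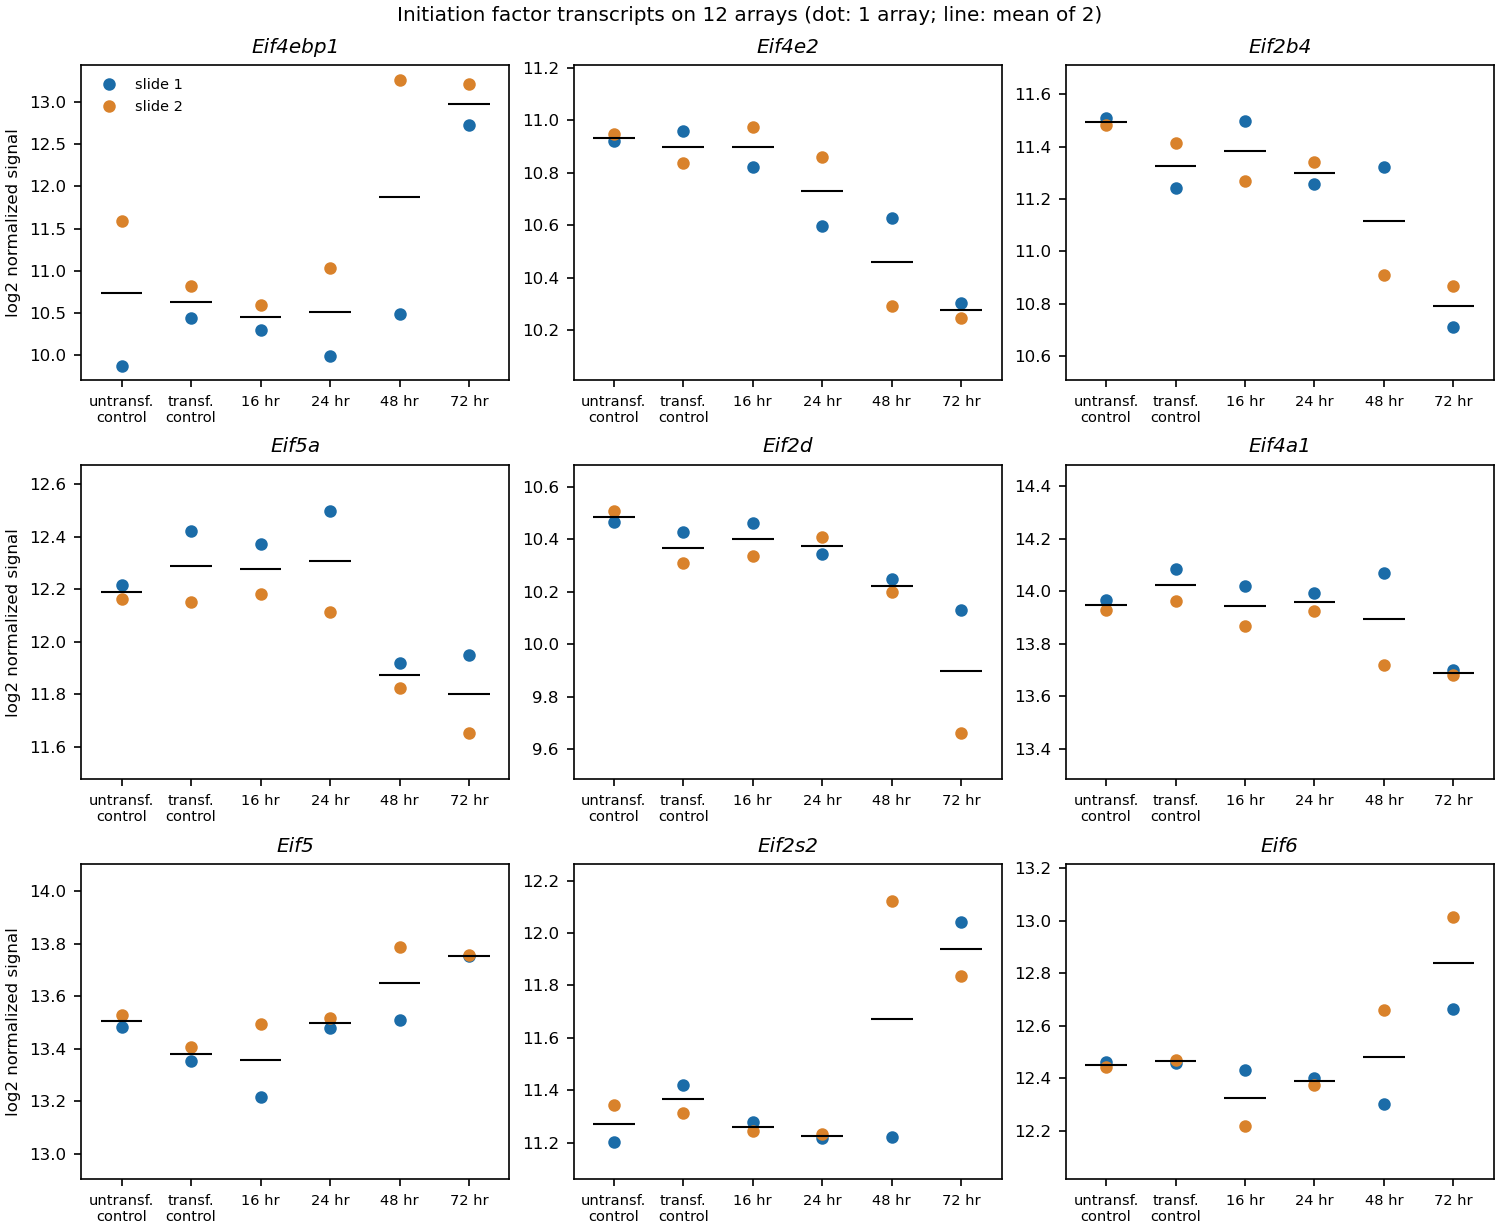
Log2 normalized signal of 9 genes on the 12 arrays, by group (blue dots for slide 1, orange dots for slide 2, lines for the mean of the 2 arrays), each panel with its own axis. Eif4ebp1 and Eif2s2 were high in both 72 hr arrays and in the 48 hr array of slide 2, and Eif4e2, Eif2b4, Eif5a, Eif2d and Eif4a1 were lowest at 72 hr or shared their low range with 48 hr.

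eIF2B is the exchange factor that recharges eIF2. Its 5 subunit genes were all tested, with 3 below and 2 above 0 at 72 hr, and each had the same sign on both slides. Eif2b4, the gene of the δ subunit, measured 11.51 and 11.48 in the untransfected control, 11.24 and 11.41 in the transfected control, 11.50 and 11.27 at 16 hr, 11.26 and 11.34 at 24 hr, 11.32 and 10.91 at 48 hr, and 10.71 and 10.87 at 72 hr. Its 72 hr arrays lay below all others. The difference was −0.54 ± 0.16 (adjusted p = 0.0675, blocked 0.0288), or 1.45-fold lower, and −0.70 against the untransfected control (adjusted p = 0.0319). The blocked call was lost without induced 72 hr replicate 1 (0.117) or 2 (0.0538) or transfected control replicate 2 (0.274).

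The other eIF2B genes did not pass. Eif2b5, the gene of the catalytic ε subunit, measured 12.01 and 11.84 in the transfected control, as against 11.77 and 11.49 at 72 hr, a difference of −0.29 ± 0.14 (blocked adjusted p = 0.138). Eif2b1 (α) measured 11.36 and 10.86 in the transfected control, as against 10.94 and 10.71 at 72 hr, and these groups overlapped. Eif2b2 (β) measured 10.23 and 10.07 in the transfected control, as against 10.27 and 10.69 at 72 hr. The difference of Eif2b2, 0.33 ± 0.18, came mainly from slide 2 (0.61, as against 0.04 on slide 1). Eif2b3 (γ) measured 9.85 and 9.91 in the transfected control, as against 10.03 and 10.47 at 72 hr, a difference of 0.37 ± 0.21 (blocked adjusted p = 0.147).

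For eIF2 itself, probes of the β and γ subunit genes were tested. Eif2s2 (β) measured 11.20 and 11.34 in the untransfected control, 11.42 and 11.31 in the transfected control, 11.28 and 11.24 at 16 hr, 11.22 and 11.23 at 24 hr, 11.22 and 12.12 at 48 hr, and 12.04 and 11.83 at 72 hr. Both 72 hr arrays and the 48 hr array of slide 2 lay above the other 9 arrays. The difference at 72 hr was 0.57 ± 0.23 (1.49-fold, adjusted p = 0.139, blocked 0.0726), the highest among the factors proper. Eif2s3x (γ) measured 10.52 and 10.50 in the transfected control, as against 10.35 and 10.30 at 72 hr, a difference of −0.18 ± 0.16. Eif2a, whose protein can also deliver initiator tRNA, differed by 0.11 ± 0.13.

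Eif2d encodes a factor that can deliver tRNA to the ribosome without eIF2 and acts in recycling. Eif2d measured 10.47 and 10.51 in the untransfected control, 10.43 and 10.31 in the transfected control, 10.46 and 10.34 at 16 hr, 10.34 and 10.41 at 24 hr, 10.25 and 10.20 at 48 hr, and 10.13 and 9.66 at 72 hr. The 72 hr arrays were the lowest, and the next lowest were both 48 hr arrays. The difference was −0.47 ± 0.16 (adjusted p = 0.101, blocked 0.042), with −0.30 on slide 1 and −0.65 on slide 2. The blocked call rested on induced 72 hr replicate 2, without which the difference was −0.26 (adjusted p = 0.338), and was also lost without transfected control replicate 1 (0.139) or 2 (0.213). Without induced 72 hr replicate 1 the difference was −0.71 and passed in the fit without the block (adjusted p = 0.0221).

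Among the factors of start codon selection and subunit joining, Eif5 encodes the protein that triggers GTP hydrolysis by eIF2. Eif5 measured 13.48 and 13.53 in the untransfected control, 13.35 and 13.41 in the transfected control, 13.22 and 13.49 at 16 hr, 13.48 and 13.52 at 24 hr, 13.51 and 13.79 at 48 hr, and 13.75 and 13.76 at 72 hr. The 72 hr arrays lay above the controls and the early arrays, while the 48 hr array of slide 2 reached 13.79. The difference was 0.37 ± 0.12 (adjusted p = 0.0908, blocked 0.029), or 1.30-fold. The blocked call was lost without any 1 of the 4 arrays compared, with adjusted p from 0.0625 (without induced 72 hr replicate 2) over 0.0782 (transfected control replicate 1) and 0.103 (induced 72 hr replicate 1) to 0.219 (transfected control replicate 2). Eif1a, whose protein helps the ribosome scan, measured 11.39 and 11.26 in the transfected control, as against 10.94 and 10.84 at 72 hr, a difference of −0.43 ± 0.18 that did not pass (blocked adjusted p = 0.0888). Eif5b, the gene of the GTPase that joins the subunits, differed by 0.48 ± 0.31 (blocked adjusted p = 0.181). Its probe was dim, with deposited signals from 117 to 236.

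Eif5a and Eif6 act beside initiation. Eif5a encodes the factor that carries the amino acid hypusine and promotes elongation and termination. It measured 12.22 and 12.16 in the untransfected control, 12.42 and 12.15 in the transfected control, 12.37 and 12.18 at 16 hr, 12.50 and 12.11 at 24 hr, 11.92 and 11.82 at 48 hr, and 11.95 and 11.65 at 72 hr. The 48 and 72 hr arrays all lay below the other 8 arrays. The difference of Eif5a at 72 hr was −0.49 ± 0.16 (adjusted p = 0.0924, blocked 0.0145), or 1.40-fold lower, and at 48 hr it was −0.41 ± 0.16 (blocked adjusted p = 0.0978). At 72 hr the blocked call was lost without induced 72 hr replicate 2 (0.088) or transfected control replicate 1 (0.0815) or 2 (0.109).

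Eif6 encodes a protein that keeps the large ribosomal subunit from joining too early. It measured 12.46 and 12.44 in the untransfected control, 12.46 and 12.47 in the transfected control, 12.43 and 12.22 at 16 hr, 12.40 and 12.38 at 24 hr, 12.30 and 12.66 at 48 hr, and 12.66 and 13.01 at 72 hr. The 72 hr arrays did not overlap with the controls, but the difference of 0.37 ± 0.15 did not pass (adjusted p = 0.152, blocked 0.084).

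eIF3, the largest of the complexes, had 10 tested subunit genes and none that passed at 72 hr in either fit. Their median size of difference was 0.12, and 4 of the 10 had the same sign on both slides. The range ran from −0.34 ± 0.33 for Eif3h, which was detected on 7 arrays, to 0.41 ± 0.21 for Eif3c. Signals of Eif3j1 were also near background (116 to 169). Eif3d, Eif3f, Eif3i, Eif3j1 and Eif3l lay between −0.06 and 0.06.

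The remaining genes set apart did not pass either. Eif4ebp2, the second 4E-binding protein gene, measured 8.46 and 8.77 in the transfected control, as against 8.26 and 8.68 at 72 hr, a difference of −0.15 ± 0.24. Eif4enif1, whose protein carries eIF4E into the nucleus, differed by −0.12 ± 0.15. Eif2ak1, the gene of the haem-regulated kinase HRI, measured 9.47 and 9.63 in the transfected control, as against 9.46 and 9.58 at 72 hr. Eif2ak2, the gene of the RNA-activated kinase PKR, measured 10.03 and 9.82 in the transfected control, as against 9.82 and 9.80 at 72 hr. The differences of these kinases were −0.03 ± 0.18 and −0.12 ± 0.24.

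Before 48 hr little was measurable. At 16 and 24 hr 0 of the 40 genes passed with limma in either fit and 0 had an unadjusted p under 0.05, at unadjusted backgrounds of 0.842% and 1.15%. The background of adjusted calls was 0% without the block at both times, and 0.00833% and 0.0167% with it. At 16 hr the differences of the factors proper ran from −0.17 (Eif3a) to 0.19 (Eif4b), and at 24 hr from −0.33 (Eif3h) to 0.41 (Eif4b). Medians were −0.02 and −0.01. The transfected control differs from the untransfected control both in the plasmids and in the absence of doxycycline, whose parts cannot be told apart. Their comparison gave 0 calls in either fit (background 0%, blocked 0.00833%) and 0 unadjusted ones (background 0.908%), with differences from −0.38 (Eif4e) to 0.34 (Eif5b).

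At 48 hr 0 of the 40 genes passed in either fit, at a background of 0% and, with the block, 0.95%. Eif4e2 (−0.44) and Eif5a (−0.41) had an unadjusted p under 0.05, at a background of 10.8%. These values depended on which 48 hr array was used. The difference of Eif4ebp1 was 1.25 ± 0.74 over both slides, 0.05 within slide 1 and 2.44 within slide 2. Without induced 48 hr replicate 1, which leaves 1 array at 48 hr, the difference was 2.63 for Eif4ebp1 and 0.76 for Eif2s2. That fit removes the spread between the 48 hr arrays, so that lower p-values for these genes were to be expected and are no support.

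**Figure D3:**
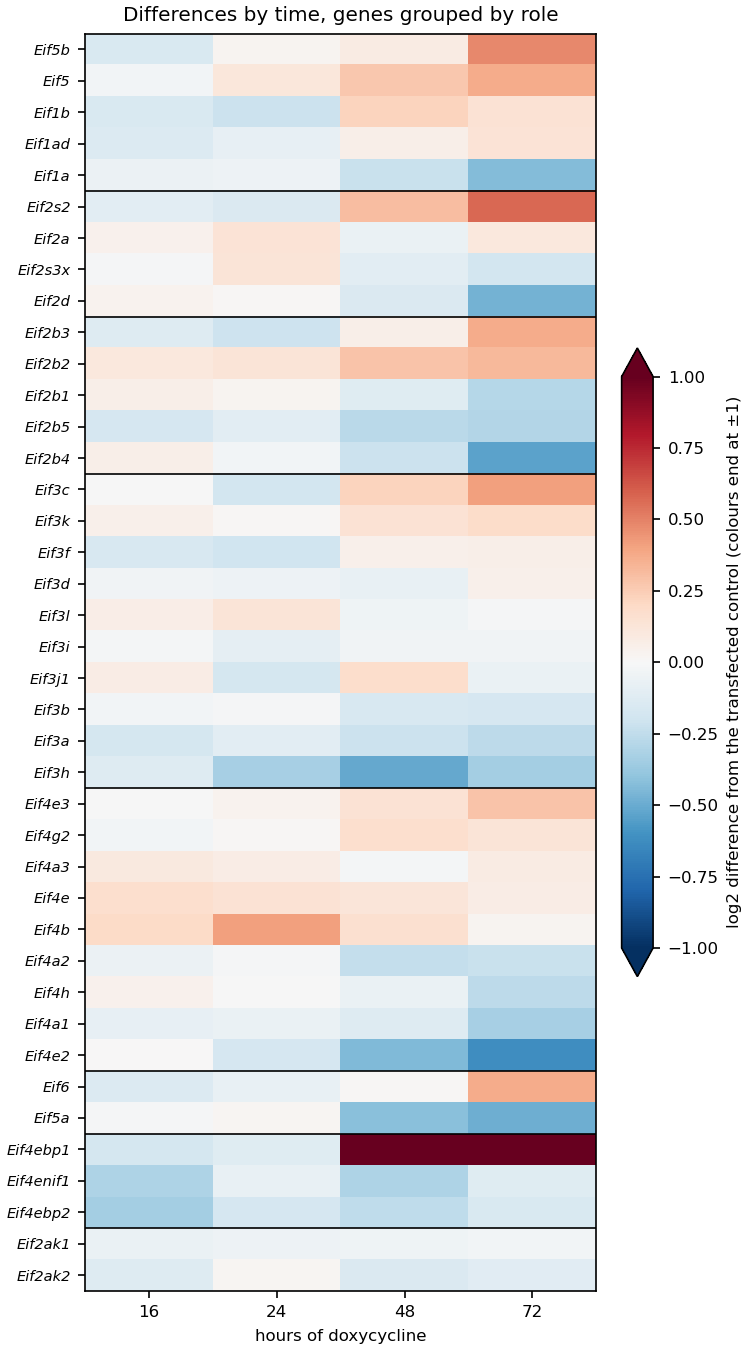
Log2 difference from the transfected control at 16, 24, 48 and 72 hr of doxycycline for the 40 tested genes, grouped by role (red for higher, blue for lower, colours end at ±1, which Eif4ebp1 exceeds at 48 and 72 hr). Differences were small at 16 and 24 hr, when the factors proper lay between −0.33 and 0.41, and at 72 hr they spread in both directions within most groups.

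The 72 and 16 hr arrays were compared directly. Length of induction and any difference in time in culture cannot be told apart in this comparison. Without the block, 0 of the 40 genes passed (background 3.07%), although 10 had an unadjusted p under 0.05 (background 25.4%). With the block, 8 of 40 (20%) passed at a background of 18.6%. Eif4ebp1 (2.52), Eif2s2 (0.68), Eif6 (0.51) and Eif5 (0.40) were higher at 72 hr than at 16 hr (background 9.99%). Eif4e2 (−0.62), Eif2b4 (−0.59), Eif2d (−0.50) and Eif5a (−0.48) were lower (background 8.65%). Eif2s2 and Eif6 passed here with the block (adjusted p = 0.041 and 0.0273) and not against the transfected control. The blocked fit was repeated without each array in turn, again with 1 array left in a group and no share over all features taken. None of these 8 calls held without every array in turn. Without induced 16 hr replicate 2 all 8 were lost (adjusted p from 0.0989 to 0.291). Without induced 72 hr replicate 1, 5 were kept (Eif2d, Eif4e2, Eif4ebp1, Eif5a and Eif6), without induced 72 hr replicate 2 there were 2 (Eif2b4 and Eif4ebp1), and without induced 16 hr replicate 1 there were 3 (Eif4e2, Eif4ebp1 and Eif6). Eif2s2 and Eif5 were lost whichever array was dropped, with lowest adjusted p of 0.0643 and 0.0574.

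Of the 21 genes with more than 1 kept probe, 14 had the same sign at 72 hr over all their probes. The 3 probes of Eif5a were all lower (−0.67, −0.48 and −0.49), and each passed with the block. The probes of Eif4e2 differed by −0.62, −0.69 and −0.05, and the first pair passed with the block. Other genes disagreed. Eif5 had 1 probe at 0.37, 1 at 0.04 and 1 at −0.37, so that its call belongs to the brightest probe alone. Eif6 had its bright probe at 0.37 and a dim probe, designed on a separate transcript, at −0.64 (blocked adjusted p = 0.0291). The probes of Eif1ad, an eIF1A-like gene, differed by 0.14, 0.45 and 0.79, and the last passed with the block (adjusted p = 0.00759).

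**Figure D4:**
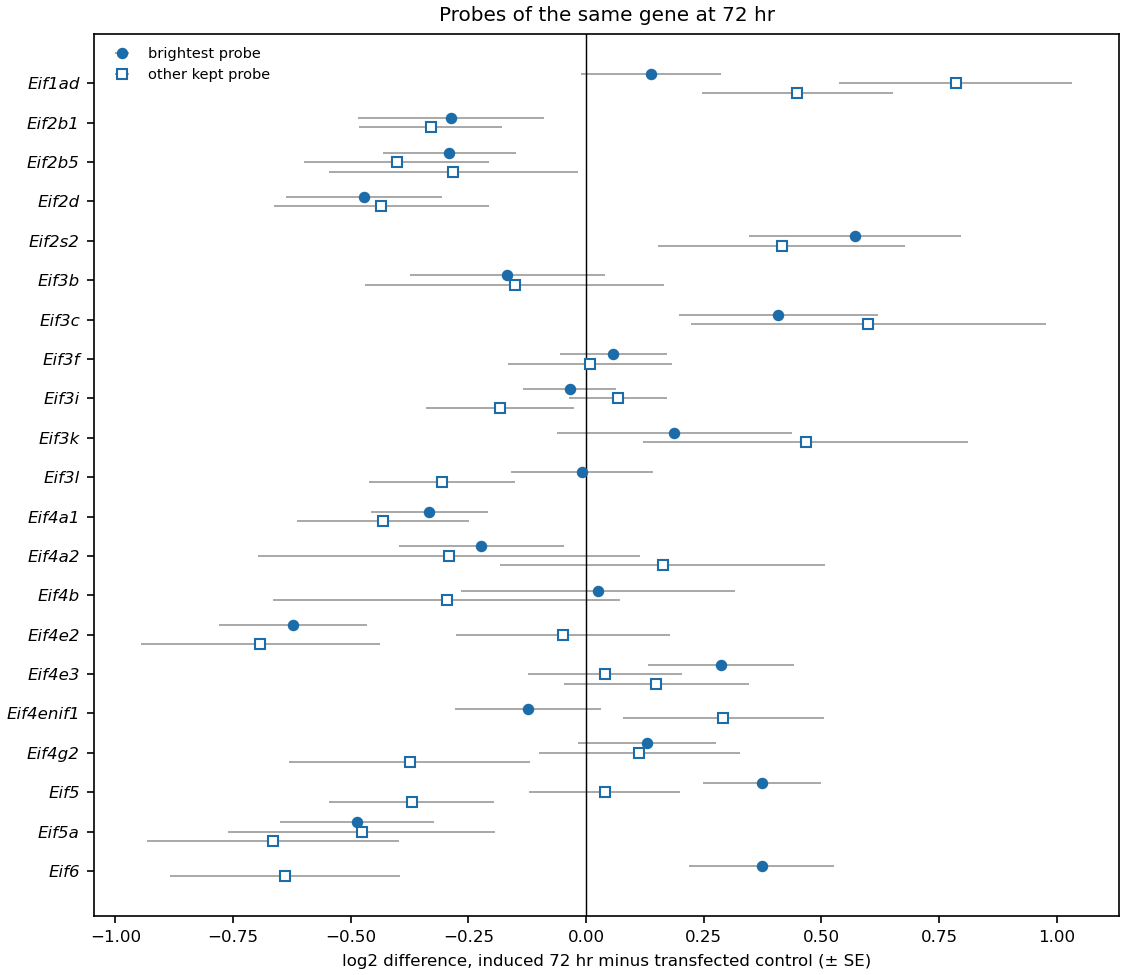
Log2 difference between the induced 72 hr and the transfected control arrays for each kept probe of the 21 genes with more than 1 (filled dots for the brightest probe, which stands for the gene, open squares for the others, bars for the SE). The probes of Eif5a and Eif2b5 lay close together, and those of Eif5 (−0.37 to 0.37) and Eif6 (−0.64 to 0.37) on both sides of 0.

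The genes around initiation were read from lists chosen with earlier results known, and their calls were not refitted without single arrays. Their counts at 72 hr stand beside backgrounds of 5.48% of all features without the block and 19.2% with it (10.4% higher and 8.76% lower). Of 16 tested partners of initiation, Mknk1, which encodes a kinase of eIF4E, rose by 1.04 (adjusted p = 0.0458) and no other passed without the block, while Dhx29, a helicase of scanning, was lower with the block (−0.55, adjusted p = 0.0215). Of 8 tested genes of eIF2 phosphorylation and its readout, 2 rose without the block and 6 with it, and none fell. Trib3, a target of ATF4 and CHOP, rose by 2.97 (adjusted p = 0.0347), and Ddit3, which encodes CHOP, rose by 2.03 (adjusted p = 0.0418). The 48 hr arrays of both were split, at 10.70 and 13.25 for Trib3 and 10.46 and 12.38 for Ddit3. Ppp1r15a, whose protein GADD34 brings the phosphatase to eIF2, differed by 1.55 and passed only with the block (adjusted p = 0.0141), as did Atf4 itself (0.50, adjusted p = 0.0294). The median of this list was 0.62, beside 0.00 for all features.

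Of 10 tested genes of mTORC1 and its regulators, Sesn2, an inhibitor of mTORC1 signalling, rose by 1.73 (adjusted p = 0.0277) and Deptor, an inhibitory subunit, by 1.12 (adjusted p = 0.0403). Sesn2 was split at 48 hr (8.69 and 10.06). Deptor measured 8.22 and 8.59 in the transfected control and already 8.97 and 8.91 at 16 hr. Ddit4, a further inhibitor, differed by 1.22 and passed only with the block (adjusted p = 0.00414). The differences of the core genes Mtor, Rptor and Mlst8 were −0.30, 0.07 and 0.15, and none of them passed. Of 10 tested elongation and termination genes, 1 passed, and only with the block, which is below the blocked background of 19.2%: Eef2k, the kinase that inhibits elongation factor eEF2 (1.17, adjusted p = 0.0183). Eef2k measured 5.60 and 5.45 in the transfected control, as against 6.35 and 7.03 at 72 hr. Undetected Hhex reached 5.76, so that the size of this difference is measured from near background. Of 6 mitochondrial translation factors, Tufm, the mitochondrial elongation factor Tu, fell by 0.74 (adjusted p = 0.0306).

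Of the islet cell markers, tests were read for Gcg and Mafa only. Gcg fell by 1.93 at 72 hr (adjusted p = 0.0134), and Mafa was lower with the block (−1.27, adjusted p = 0.0122). Gcg ranged from 11.79 to 14.34 over the arrays and Mafa from 6.22 to 8.19, while Sst and Hhex were not detected. The other β-cell markers did not move in 1 direction. Slc30a8 measured 12.80 and 12.65 in the transfected control, as against 13.13 and 12.76 at 72 hr. Pdx1 measured 11.56 and 11.87, as against 11.53 and 11.57, and Slc2a2 measured 11.30 and 11.56, as against 11.21 and 10.67. The differences of Nkx6-1, Nkx2-2 and Iapp had opposite signs on the slides. Ins2 had the same value, 15.53, on every array except induced 72 hr replicate 2 (15.37). Quantile normalization gives equal values to equal ranks, so that a change of Ins2 within its rank would not show. The part of these markers in the differences of the initiation factors was not tested.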

How the data were processed

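Total RNA of MIN6 cells was measured on 12 arrays, and samples were grouped by the labels. For each probe and array the authors deposited the mean signal intensity of its beads, before any normalization between arrays, and a detection p-value. The authors also deposited quantile normalized intensities, for which their processing notes name lumi without a version, and these served as an alternative. From the deposited intensities and detection p-values, neqc of limma 3.58.1 (R 4.3.3) subtracted background (offset 16), normalized the arrays by quantiles and gave log2 values. Plots were made in matplotlib 3.10.9 (Python 3.11.15).

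Of 17556 probes detected (p under 0.01) on 2 arrays or more, the brightest per named gene was kept, and probes without a single symbol were all kept. This gave 12001 features, 9493 named genes and 2508 unnamed probes, and the shares over all features include both. Symbols in the platform annotation can be out of date, and 10378 probes are not in it. All features were fitted in limma with 1 mean for each of the 6 groups (variance trend, 6 residual degrees of freedom), and p-values were adjusted over all of them by the Benjamini-Hochberg method, with a threshold of 0.05. Replicate numbers follow the slides in the labels, and in each of 15 pairs of groups same-numbered arrays had correlated residuals (0.207 to 0.628), so that a second fit took the slide as a replicate block (5 residual degrees of freedom). The procedure was also run on simulated data, and how many differences it recovered is not reported here.

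The members, the gene lists and the named genes were chosen with earlier results of these data known. Accounts were given for members with the smallest p at 72 hr and for Eif4ebp1 and the subunits and kinases of eIF2, eIF2B and eIF4. The genes in counts of the alternatives, and Eif5b, Eif3c, Eif3h and Eif1ad, were named after their values were seen. Alternatives were other backgrounds, scalings, filters and probe choices, other controls, the methods' t-test and leaving out each array. Leaving out the 48 hr arrays was added after seeing the data. The study's text speaks of triplicates, and 2 arrays per group were analysed here, a number that limits the precision. Sites of miR-184 were not analysed here.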

Additional observations from a re-analysis of the deposited data

Results flagged for a closer look

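The induced 72 and 16 hr groups differed, in limma's fit with the slide as a block, for 8 of the 40 genes. The difference, 72 minus 16 hr, was 2.52 for Eif4ebp1, 0.68 for Eif2s2, 0.51 for Eif6 and 0.40 for Eif5 on the log2 scale. It was −0.62 for Eif4e2, −0.59 for Eif2b4, −0.50 for Eif2d and −0.48 for Eif5a. All 8 calls were lost without induced 16 hr replicate 2. That fit leaves 1 array at 16 hr, and the share of all features that passed in it was not taken, so that the loss may not be particular to these genes. With all arrays these 8 stood at 20%, beside 18.6% of all features. The transfected control does not enter this comparison, in which length of induction and any difference in time in culture cannot be told apart.

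Probes that did not stand for their gene also passed at 72 hr with the block. These were 1 probe of Eif1ad (0.79), 1 of Eif4e2 (−0.69), 2 of Eif5a (−0.67 and −0.48) and 1 of Eif6 (−0.64). The probes of Eif4e2 and Eif5a had the sign of the brighter probe, and that of Eif6 had the opposite sign.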

How the results depend on the processing

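Counts here are of the 35 factors proper. The share of all features that passed was taken only for the main fit and for the replicate block with all arrays. Under the other alternatives the counts have no background beside them and are not read as results about the factors. The count of 1 at 72 hr was 0 with median scaling, without the filter on detection p, with only the groups compared and with the methods' t-test after adjustment, 2 against the untransfected control and 7 with the methods' t-test unadjusted. With the replicate block it was 6 at 72 hr, and 7 from 16 to 72 hr in place of 0. Without the 48 hr arrays, a choice made after seeing the data, the counts were 3 and 5, and with the block 7 and 9. From 16 to 72 hr, detection on all arrays gave 1 (Eif4e2) and the methods' t-test unadjusted 5, and that test gave 3 at 24 hr (Eif2b3, Eif3h and Eif6) and 1 at 48 hr (Eif3h). Leaving out single arrays, with and without the block, gave 0 to 2 at 48 hr, 0 to 5 at 72 hr and 0 to 5 from 16 to 72 hr. At 72 hr without the block, the count was 0 once induced 72 hr replicate 2 or either transfected control array was dropped. With the block, paired by slide, dropping the induced 72 hr arrays gave 5 (replicate 1) and 0 (replicate 2), and dropping those of the transfected control gave 2 (replicate 1) and 0 (replicate 2). The causes were not tested.

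Median scaling moved the median of the factors to −0.075 at 16 hr, −0.11 at 24 hr, −0.20 at 48 hr, −0.055 at 72 hr and −0.084 between the controls, which differ in plasmids and in doxycycline, and that of all features at 48 hr to −0.11. At 72 hr the median was −0.039 against the untransfected control, 0.038 with detection on all arrays, −0.042 over every kept probe and 0.0049 without the filter. Leaving out single arrays gave medians of −0.088 to −0.0038 at 24 hr, −0.12 to −0.0021 at 48 hr, −0.037 to 0.0021 at 72 hr and −0.083 to 0.016 from 16 to 72 hr.

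Signs turned for members in comparisons that they had passed in neither fit. At 72 hr, median scaling turned Eif3d (−0.085), Eif3f (−0.037) and Eif4a3 (−0.055), and the untransfected control turned Eif2ak1 (0.13), Eif3j1 (0.053), Eif4b (−0.14) and Eif4e (−0.31). Leaving out single arrays gave ranges across 0 at 72 hr of −0.13 to 0.42 for Eif1b, −0.10 to 0.053 for Eif2ak1, −0.31 to 0.076 for Eif2ak2, −0.39 to 0.055 for Eif3b, −0.031 to 0.13 for Eif3d, −0.029 to 0.15 for Eif3f, −0.71 to 0.031 for Eif3h, −0.24 to 0.11 for Eif3j1, −0.071 to 0.45 for Eif3k and −0.080 to 0.063 for Eif3l. In the eIF4 group they were −0.31 to 0.36 for Eif4b, −0.23 to 0.38 for Eif4e, −0.36 to 0.061 for Eif4ebp2, −0.34 to 0.090 for Eif4enif1 and −0.023 to 0.28 for Eif4g2. For Eif4ebp1 they were −0.67 to 0.31 at 16 hr, −0.64 to 0.40 at 24 hr, −0.14 to 2.63 at 48 hr and −0.96 to 0.75 between the controls.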
